A study of Homo sapiens with 6 samples.

Results

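The genes described here act on canonical WNT signaling or report its activity: AXIN2, NKD1, NKD2, RNF43, ZNRF3, NOTUM, APCDD1, DKK1, SP5 and LGR5. They were chosen by name as feedback genes that beta-catenin and TCF factors are known to induce, and they are 10 of the 58735 genes in the count table. They were measured in BT549, an established human line of basal-like breast cancer. The cells were treated with AS1842856, a compound that binds the FOXO1 protein and blocks its contact with DNA. The paper proposes that AS1842856 modulates FOXO1 and does not only inhibit it. RNA-Seq libraries came from 3 samples of cells given DMSO, the solvent control, and 3 given AS1842856, both for 48 h, with replicates lettered A, B and C. The labels give the dose as 200 nM and the methods text gives 1 μM, and the dose was not resolved here. The experiment used 1 cell line and 1 compound, and the mRNA of FOXO1 does not report whether the compound bound its protein.

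When a WNT ligand binds its Frizzled and LRP receptors, beta-catenin escapes the destruction complex, enters the nucleus and activates genes with TCF and LEF factors. Several of the activated genes then restrain the pathway at different steps, from the ligand to the nucleus. AXIN2, one of the activated genes, is widely used as a readout of the pathway. In the mammary gland, canonical WNT signaling is known for maintaining stem cells of the epithelium.

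The promoters of SP5 and DKK1 are shown because both hold the core letters that TCF and LEF proteins recognize, in a gene that was higher with AS1842856 and in one that was lower. Sequences are the 250 bases before the RefSeq start site on GRCh38.p14, from chr2:170715087-170715336 (plus strand) for SP5 and chr10:52314031-52314280 (plus strand) for DKK1. Capitals mark the letters NNCAAAG on either strand, where each N is A or T.
SP5: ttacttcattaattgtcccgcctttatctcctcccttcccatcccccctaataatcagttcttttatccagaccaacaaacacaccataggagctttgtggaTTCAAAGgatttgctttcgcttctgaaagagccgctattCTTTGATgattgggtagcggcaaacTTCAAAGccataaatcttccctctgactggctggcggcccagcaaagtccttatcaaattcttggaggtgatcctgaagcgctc
DKK1: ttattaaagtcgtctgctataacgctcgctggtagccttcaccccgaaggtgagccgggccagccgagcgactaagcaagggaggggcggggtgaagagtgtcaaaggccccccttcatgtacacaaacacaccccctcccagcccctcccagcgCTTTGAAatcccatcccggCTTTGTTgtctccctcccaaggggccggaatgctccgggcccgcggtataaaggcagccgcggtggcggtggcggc
SP5 held 3 matches, which started 148, 109 and 84 bases before the start site. DKK1 held 2 matches, 95 and 76 bases before it. No marked stretch overlapped another. Among 34788 distinct promoter sequences of the same length, 12.0% held at least 1 match, 1.22% at least 2 and 0.124% at least 3. The RefSeq table held promoters of 5 of the 10 genes, and those of NKD2, RNF43 and APCDD1 had no match in this window. The FOXO letters GTAAACA, searched on both strands, were in none of the promoters of the 5 genes and in 2.98% of all sequences. A match is a match of letters only, and whether any factor bound there was not measured.

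The libraries held between 15289500 and 22981832 counts. Levels below are CPM, the counts scaled by TMM to the depth of each library. Mesenchymal markers typical of this line (VIM, ZEB1, CDH2, FN1, SPARC and MSN) were detected in every library, with summed levels of 3874 to 3981 CPM in DMSO and 3797 to 3871 CPM with AS1842856. Within this sum FN1 and ZEB1 were higher with AS1842856, by 1.13 and 0.50 on the log2 scale, and VIM, CDH2, SPARC and MSN were lower, by edgeR. The 6 luminal markers summed to between 50.01 and 54.95 CPM in DMSO and between 57.7 and 66.4 CPM with AS1842856, most of it GATA3, which was higher (log2 fold change 0.28), while FOXA1 was lower (log2 fold change -1.11). EPCAM had 15 counts in DMSO and 1 with AS1842856, PGR had 6 and 1, and ESR1 and CDH1 had 1 count each in all libraries together. Of the leukocyte and endothelial markers, CD3E and CDH5 were at 0 in every library and PECAM1 had 1 count. PTPRC was the exception, with 26, 24 and 13 counts in DMSO and 44, 74 and 64 with AS1842856, so that this list summed to between 0.700 and 1.56 CPM in DMSO and between 2.70 and 3.59 CPM with AS1842856. The part of these marker differences in the results was not tested. In bulk RNA, fewer cells expressing a gene and less RNA per cell cannot be told apart.

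Of the 10 feedback genes, 7 had enough counts to be tested. AXIN2, NKD1, NKD2, ZNRF3, NOTUM and SP5 were higher with AS1842856, by between 3.54-fold and 58.7-fold, and DKK1 was 2.19-fold lower. RNF43, APCDD1 and LGR5 were at or near 0 and were not tested. The test was the quasi-likelihood test of edgeR, with p-values adjusted by Benjamini-Hochberg over all genes tested. The compound moved a large part of the transcriptome, so these calls are read against that background. Of 14338 genes tested, 56.0% passed an adjusted p of 0.05, with 27.6% higher and 28.4% lower, and the groups did not overlap in 59.9%. DESeq2 called 35.8% of the 18975 genes to which it gave an adjusted p, and called the same 7 feedback genes in the same directions. An increase that passed and reached 2 on the log2 scale was less common, at 1.41% of genes, and AXIN2 had one. NKD1, NKD2, NOTUM and SP5 had one as well, but passed the filter on low counts through the AS1842856 libraries alone. Their DMSO libraries all lay under the filter level of 0.548 CPM, so these genes could enter the test only by being higher. Their direction carries no weight as a count, and their size is not set against the 1.41%. AXIN2, ZNRF3 and DKK1 were above that level in all 6 libraries.

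**Figure D1:**
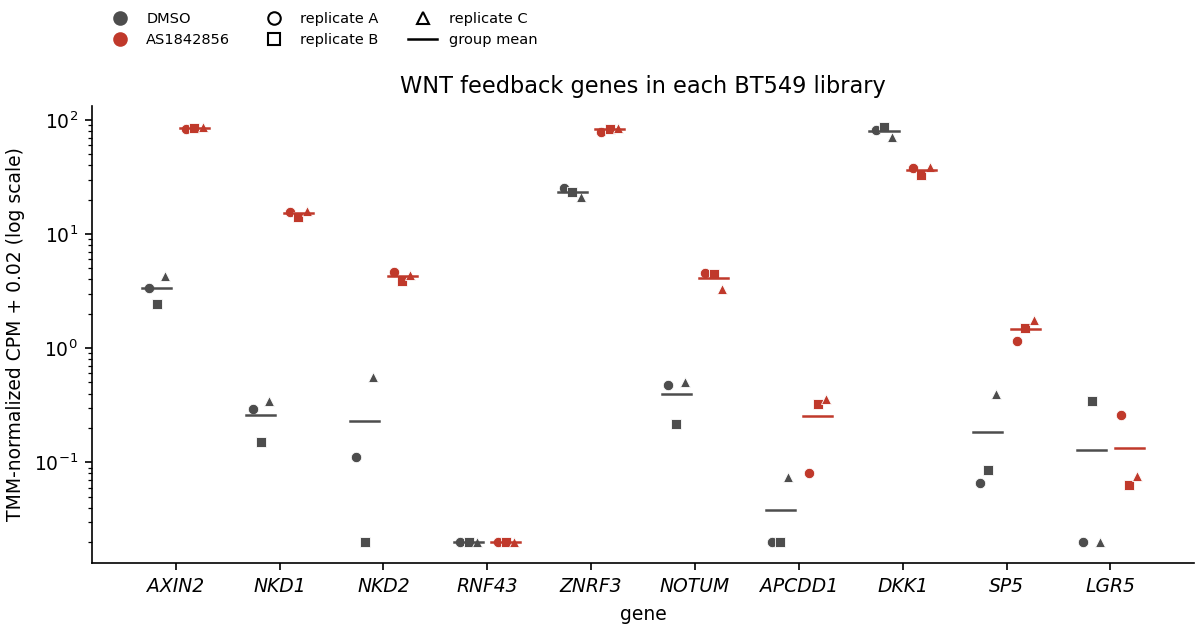
Levels of the 10 feedback genes in each library, as TMM-normalized CPM plus an offset of 0.02 on a log axis, with DMSO in grey, AS1842856 in red, a symbol for each replicate and a line at each group mean. The groups lay apart for AXIN2, NKD1, NKD2, ZNRF3, NOTUM and SP5, with AS1842856 above DMSO, and for DKK1, with AS1842856 below, while RNF43 was at 0 throughout and LGR5 overlapped.

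AXIN2 encodes a scaffold of the beta-catenin destruction complex (ENSG00000168646, GRCh38 chr17:65528563-65561647, minus strand). Its level was 3.37, 2.41 and 4.31 CPM in DMSO replicates A, B and C, and 83.2, 85.1 and 87.1 CPM with AS1842856. The treated libraries were close to each other and far above every control, of which replicate B was the lowest. The mean rose from 3.36 ± 0.948 to 85.2 ± 1.96 CPM (SD, n = 3), which was a 24.9-fold increase (log2 fold change 4.64, SE 0.09, adjusted p = 1.30e-129 by edgeR's quasi-likelihood test). AXIN2 ranked 29 from the top among the 14338 log2 fold changes. The change lay between 4.48 and 4.83 on the log2 scale when each library was left out. An overlapping gene on the same strand, AC004805.1, covered 25.2% of the AXIN2 exon length and had 0 counts in every library.

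NKD1 and NKD2 encode the Naked cuticle proteins, which bind Dishevelled and dampen the signal inside the cell. For NKD1 (ENSG00000140807, chr16:50548330-50649249, plus strand), 6, 2 and 6 reads were counted in DMSO and 258, 318 and 284 with AS1842856. The level rose from near absence, at 0.273, 0.130 and 0.323 CPM in DMSO, to 15.1 ± 1.05 CPM with AS1842856 (SD, n = 3). With all libraries, the 58.7-fold difference was the largest among the feedback genes tested (log2 fold change 5.87, SE 0.23, edgeR adjusted p = 1.62e-69). NKD1 ranked 13 from the top of all genes. The log2 fold change lay between 5.63 and 6.09 with each library left out. The ratio of the group totals, adjusted for depth, was 59.9 with an exact 95% interval from 35.5 to 110. That interval covers counting error only and is wider than the SE implies.

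NKD2 (ENSG00000145506, chr5:1008829-1038943, plus strand) had 2, 0 and 10 counts in DMSO and 77, 88 and 78 counts with AS1842856. The control level was uneven, since 10 of the 12 DMSO counts were in replicate C, whereas the treated libraries were alike. The mean was 0.210 ± 0.288 CPM in DMSO and 4.28 ± 0.391 CPM with AS1842856 (SD, n = 3). The log2 fold change was 4.27 (SE 0.36, edgeR adjusted p = 9.14e-23), corresponding to a 19.3-fold difference. Without DMSO replicate C the log2 fold change was 6.15, above the 6.09 of NKD1 in that fit. The size of the NKD2 change, and its order against NKD1, thus depended on 1 library. Its direction was set by the filter, since NKD2 lay under the filter level in every DMSO library.

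ZNRF3 and RNF43 encode related transmembrane ubiquitin ligases that clear Frizzled receptors from the cell surface. ZNRF3 (ENSG00000183579, chr22:28883592-29057487, plus strand) was well expressed without the compound, at 25.1, 23.4 and 21.1 CPM in DMSO and 78.4, 83.7 and 85.2 CPM with AS1842856. Both groups were tight. The mean rose 3.54-fold, from 23.2 ± 2.01 to 82.4 ± 3.59 CPM (SD, n = 3, log2 fold change 1.83, SE 0.06, edgeR adjusted p = 4.58e-82). ZNRF3 ranked 247 from the top, and with each library left out its change lay between 1.75 and 1.89. For comparison, 4.27% of the genes tested passed with an increase of 1 or more on the log2 scale.

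RNF43 (ENSG00000108375, chr17:58352500-58417595, minus strand) was listed at 0 counts in all 6 libraries. A listed 0 can be a failed estimate, and a neighboring gene was also near 0. A longer gene on the same strand, AC004687.2, covers 57.6% of the RNF43 exon length and also spans SUPT4H1, a subunit of the DSIF elongation factor that cells generally express. SUPT4H1 itself had 5, 3 and 0 counts in DMSO and 1, 0 and 0 with AS1842856. Its partner in DSIF, SUPT5H, had between 3129 and 6124 counts in each library. AC004687.2 had 1, 0 and 2 counts in DMSO and 0, 1 and 3 with AS1842856. Whether reads shared by these genes were set aside in counting was not tested, and no level is given for RNF43.

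Of the members that act outside the cell, NOTUM rose and DKK1 fell. NOTUM is a secreted esterase that removes the lipid from WNT proteins (ENSG00000185269, chr17:81952507-81961840, minus strand). It had 10, 3 and 9 counts in DMSO and 76, 101 and 59 with AS1842856. All treated libraries were above all controls, at 4.10 ± 0.687 against 0.378 ± 0.159 CPM (SD, n = 3). The difference was 10.3-fold (log2 fold change 3.37, SE 0.32, edgeR adjusted p = 5.30e-21) and lay between 3.11 and 3.54 with each library left out.

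DKK1 is a secreted antagonist that binds LRP5 and LRP6 (ENSG00000107984, chr10:52314296-52318042, plus strand). It was measured at 81.1, 85.9 and 70.7 CPM in DMSO and at 37.7, 32.9 and 38.2 CPM with AS1842856. Every treated library was below every control. The mean fell from 79.2 ± 7.78 to 36.3 ± 2.93 CPM (SD, n = 3), with a log2 fold change of -1.13 (SE 0.06, edgeR adjusted p = 4.54e-40) and a range of -1.21 to -1.06 when each library was left out. Of the 3 feedback genes above the filter level in all libraries, DKK1 was lower and AXIN2 and ZNRF3 were higher, and 6.33% of all genes tested passed with a decrease of 1 or more on the log2 scale. An antisense gene, PRKG1-AS1, overlaps 9.61% of the DKK1 exon length and had 1.42% as many counts.

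APCDD1 encodes a membrane glycoprotein that binds WNT and LRP proteins and inhibits the pathway (ENSG00000154856, chr18:10454628-10489948, plus strand). Only 0, 0 and 1 reads were counted in DMSO and 1, 7 and 6 with AS1842856. The counts of treated replicate A and control replicate C were equal. The ratio of the group totals, adjusted for depth, was 13.6 with an exact 95% interval from 2.08 to 577 that covers counting error only. When the filter on low counts was left out, the log2 fold change was 3.31 (SE 1.37) and did not pass the threshold (edgeR adjusted p = 0.0557 among 27508 genes).

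SP5 encodes a zinc finger transcription factor that represses WNT target genes (ENSG00000204335, chr2:170715351-170718078, plus strand). It had 1, 1 and 7 counts in DMSO and 19, 34 and 31 counts with AS1842856. As for NKD2, most of the control signal came from DMSO replicate C, which held 7 of the 9 counts. The mean was 0.162 ± 0.186 CPM in DMSO and 1.46 ± 0.301 CPM with AS1842856 (SD, n = 3), a difference of 8.74-fold (log2 fold change 3.13, SE 0.50, edgeR adjusted p = 9.60e-09). Without DMSO replicate C the log2 fold change was 4.60.

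LGR5 encodes a receptor for R-spondins, the ligands that keep ZNRF3 and RNF43 away from Frizzled (ENSG00000139292, chr12:71439770-71586310, plus strand). It had 0, 5 and 0 counts in DMSO and 4, 1 and 1 with AS1842856. The groups overlapped, and the depth-adjusted ratio of 1.17 had an exact 95% interval from 0.297 to 4.85. At this depth, 3 counts correspond to between 0.131 and 0.195 CPM, and a difference in LGR5 was not detectable.

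**Figure D2:**
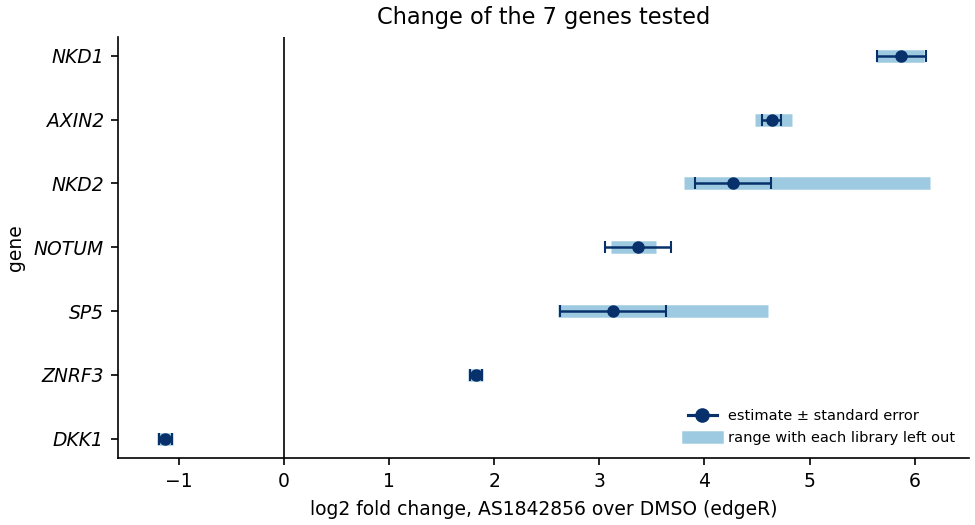
Log2 fold change of the 7 feedback genes tested, AS1842856 over DMSO. Points and bars give the edgeR estimate and a standard error derived from its test statistic. Pale bands give the range when each of the 6 libraries was left out. The bands of NKD2 and SP5 were the widest and reached 6.15 and 4.60. No band crossed 0, but the filter let in NKD1, NKD2, NOTUM and SP5 only as increases.

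DMSO replicate C had the highest level of AXIN2, NKD1, NKD2, NOTUM and SP5, which was 5 of the 7 genes tested, whereas it was highest among the controls for 32.0% of all genes tested. ZNRF3 and DKK1 were lowest in the same library. DMSO replicate B was lowest for AXIN2, NKD1, NKD2 and NOTUM, and for 33.3% of all genes tested. NKD1 and NOTUM had about as many counts in replicate A as in C (6 and 6, 10 and 9), and differences between the controls were not tested.

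Levels of different genes were compared per length, as the FPKM values deposited by the authors. In DMSO, DKK1 was highest at 35.7 ± 3.47 FPKM, followed by ZNRF3 at 3.31 ± 0.288 and AXIN2 at 0.639 ± 0.181 FPKM (SD, n = 3). NOTUM came next at 0.125 ± 0.0525 FPKM. SP5, NKD2, LGR5, NKD1 and APCDD1 lay lower, and each overlapped the gene above it in this order. With AS1842856, DKK1 at 16.4 ± 1.32 FPKM and AXIN2 at 16.2 ± 0.354 FPKM overlapped at the top, and ZNRF3 followed at 11.8 ± 0.4996 FPKM. A gap separated these 3 genes from NKD2 at 1.48 ± 0.135 and NOTUM at 1.35 ± 0.227 FPKM, which overlapped. NKD1 was at 0.862 ± 0.0596 and SP5 at 0.702 ± 0.144 FPKM, and these also overlapped. APCDD1 and LGR5 stayed under 0.06 FPKM in every treated library. NKD1, which had the largest fold change with all libraries, was therefore a low gene per length in both groups. Its FPKM is divided by about 17425 bases of merged exons, against 2206 bases for DKK1, so the order depends on the exon lengths used.

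**Figure D3:**
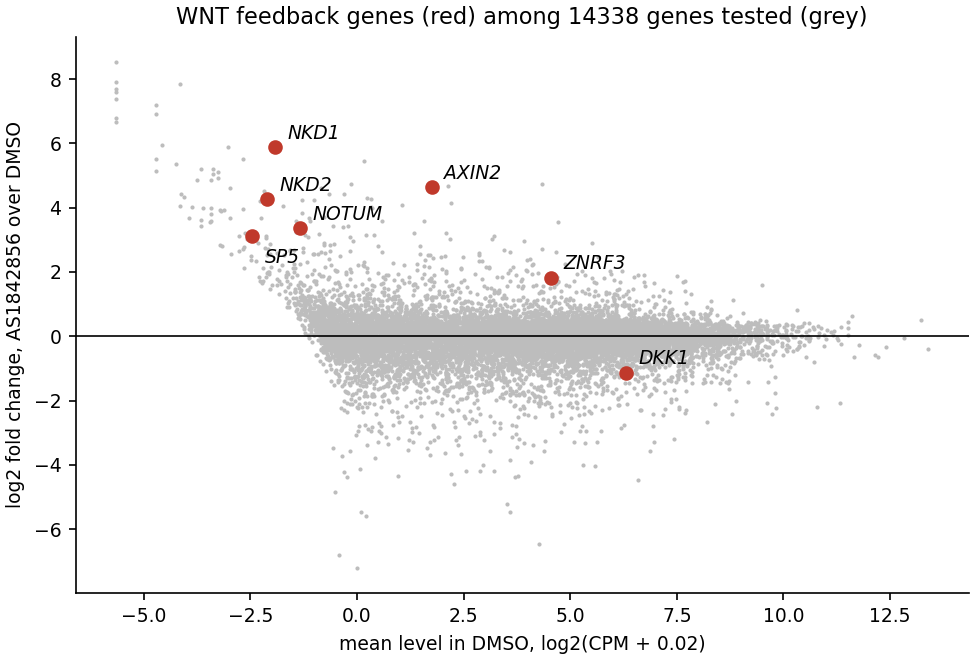
Log2 fold change against mean DMSO level, as log2 of CPM plus an offset of 0.02, for the 14338 genes tested (grey) with the 7 feedback genes tested in red. AXIN2, ZNRF3 and DKK1 lay at levels where genes of both directions were tested, whereas NKD1, NKD2, NOTUM and SP5 lay at the low end, where the filter left increases alone.

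The genes whose profile over the 6 libraries was closest to AXIN2 were TCF7, KANK4 and DDIT4L, by the Euclidean distance between centred log2 CPM values among 13023 genes with a mean of at least 1 CPM. TCF7, a TCF family factor, was at distance 0.347 and rose from 20.2 ± 2.75 to 540.4 ± 13.3 CPM. KANK4, a scaffold protein, was at distance 0.414 and rose from 4.36 ± 0.798 to 111.0 ± 4.27 CPM. DDIT4L, an inhibitor of mTOR signaling, was at 0.623. The closest genes to DKK1 were BOK, a member of the BCL2 family, at 0.137, the long noncoding RNA gene LINC00342 at 0.148 and MXD4, a partner of MAX, at 0.149. BOK fell from 61.8 ± 2.86 to 28.3 ± 1.83 CPM (SD, n = 3). With 6 libraries in 2 groups, this distance mostly ranks genes by a like size of change.

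Other genes of the pathway were listed to place the feedback genes among them. The counts called in each list stand beside 27.6% of all genes tested that were higher and 28.4% that were lower. Whether any list differed from these shares was not tested. Of 30 other beta-catenin and TCF target genes, 20 were tested, of which 12 were higher and 8 were lower. The median log2 fold change was 0.74 in this list and 0.003 over all genes tested. Of the 12, PROX1 and FGF20 were under the filter level in every DMSO library and could enter the test only by being higher, which raises the list's median. Among them, PROX1, a homeobox factor, had 1, 2 and 0 counts in DMSO and 127 in total with AS1842856, a depth-adjusted ratio of 41.3 with an exact 95% interval from 13.8 to 203. TCF7 and LEF1, the HMG-box factors that pair with beta-catenin, rose by 4.74 (SE 0.05) and 4.08 (SE 0.13) on the log2 scale (edgeR adjusted p = 5.62e-150 and 5.01e-89). TCF7 shares 2.09% of its exon length with SKP1 on the opposite strand, which had 55.8% as many counts on average over all 6 libraries. That SKP1 average was 2985 counts, whereas TCF7 had 427, 275 and 432 counts in DMSO. L1CAM, an adhesion molecule, fell from 12.0 ± 2.52 to 0.816 ± 0.205 CPM (log2 fold change -3.86, SE 0.20, edgeR adjusted p = 5.77e-50). The target list thus held large changes in both directions.

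Of 13 close relatives of the feedback genes and R-spondins, 7 were tested, with 3 higher and 4 lower (median log2 fold change -0.51). Of the 3 that were higher, DKK2 and SP9 lay under the filter level in every DMSO library, so their direction was set by the filter. Both raise the median of the list. The third, AXIN1, the relative of AXIN2, was at 41.1 ± 3.23 CPM in DMSO and 45.4 ± 1.35 CPM with AS1842856, with overlapping groups (log2 fold change 0.14, SE 0.06, edgeR adjusted p = 0.0484). SP9 and AXIN1, like FGF20 and DRAXIN in the other lists, are outside the rule for named genes and were chosen after their values were seen. DKK2, a Dickkopf relative of DKK1, had 4, 1 and 6 counts in DMSO and 48, 59 and 41 with AS1842856 (log2 fold change 3.67, SE 0.42, edgeR adjusted p = 4.00e-15). DKK3, a divergent relative, fell from 25.6 ± 2.49 to 11.4 ± 1.26 CPM (log2 fold change -1.18). APCDD1L, the relative of APCDD1, fell from 4.93 ± 0.803 to 0.698 ± 0.182 CPM (log2 fold change -2.82, SE 0.27, edgeR adjusted p = 8.34e-21). RSPO2, an R-spondin that acts through LGR receptors, fell from 35.0 ± 1.97 to 9.66 ± 1.92 CPM (log2 fold change -1.84, SE 0.09, edgeR adjusted p = 1.63e-49).

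Of 12 WNT receptor genes, which encode the proteins that ZNRF3 and DKK1 act on, 10 were tested, with 2 higher, 5 lower and 3 that did not pass, and the median log2 fold change was -0.36. The Frizzled genes FZD8 and FZD2 fell by 1.84 (SE 0.12) and 1.13 (SE 0.05) on the log2 scale, and the co-receptor gene LRP5 fell by 1.05 (SE 0.08). FZD4 fell by 0.89 (SE 0.19), but 18.9% of its exon length is shared with PRSS23 on the opposite strand, which had many more counts, so its value is uncertain. The edgeR adjusted p was 1.94e-35 for FZD8, 3.51e-54 for FZD2, 4.65e-24 for LRP5 and 1.36e-05 for FZD4.

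All 15 genes of the destruction complex, beta-catenin and its nuclear partners were tested, with 8 higher, 4 lower, 3 that did not pass and a median log2 fold change of 0.13. BCL9, a coactivator of beta-catenin, rose from 40.3 ± 2.38 to 103.8 ± 4.53 CPM (log2 fold change 1.36, SE 0.05, edgeR adjusted p = 1.68e-70). TCF7L1, a TCF factor that often acts as a repressor, fell by 0.54 (SE 0.13). The kinase genes CSNK1A1 and GSK3A, whose products mark beta-catenin for destruction, rose by 0.42 (SE 0.04) and 0.38 (SE 0.05). CSNK1A1 shares 37.4% of its exon length with AC021078.1 on the same strand. The edgeR adjusted p was 7.09e-05 for TCF7L1, 6.31e-23 for CSNK1A1 and 1.67e-12 for GSK3A.

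Of 15 other secreted or surface WNT inhibitors, 8 were tested, with 3 higher, 2 lower, 3 that did not pass and a median log2 fold change of 0.66. Of the 3 that were higher, DRAXIN was under the filter level in every DMSO library and could enter only by being higher, which raises the median. SFRP2, a secreted WNT-binding protein, rose from 8.72 ± 1.24 to 21.1 ± 1.12 CPM (log2 fold change 1.26, SE 0.10, edgeR adjusted p = 1.52e-25). Its relative SFRP1 fell from 154.7 ± 4.60 to 106.9 ± 2.54 CPM (log2 fold change -0.54, SE 0.04, edgeR adjusted p = 3.38e-28). TPBG, a surface inhibitor of WNT signaling, rose by 1.06 (SE 0.04, edgeR adjusted p = 1.16e-65). TRABD2A, a membrane protease that inactivates WNT proteins, fell by 1.36 (SE 0.10, edgeR adjusted p = 7.12e-32). Its exons overlap those of the far more abundant TMSB10 on the opposite strand over 0.148% of their length.

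**Figure D4:**
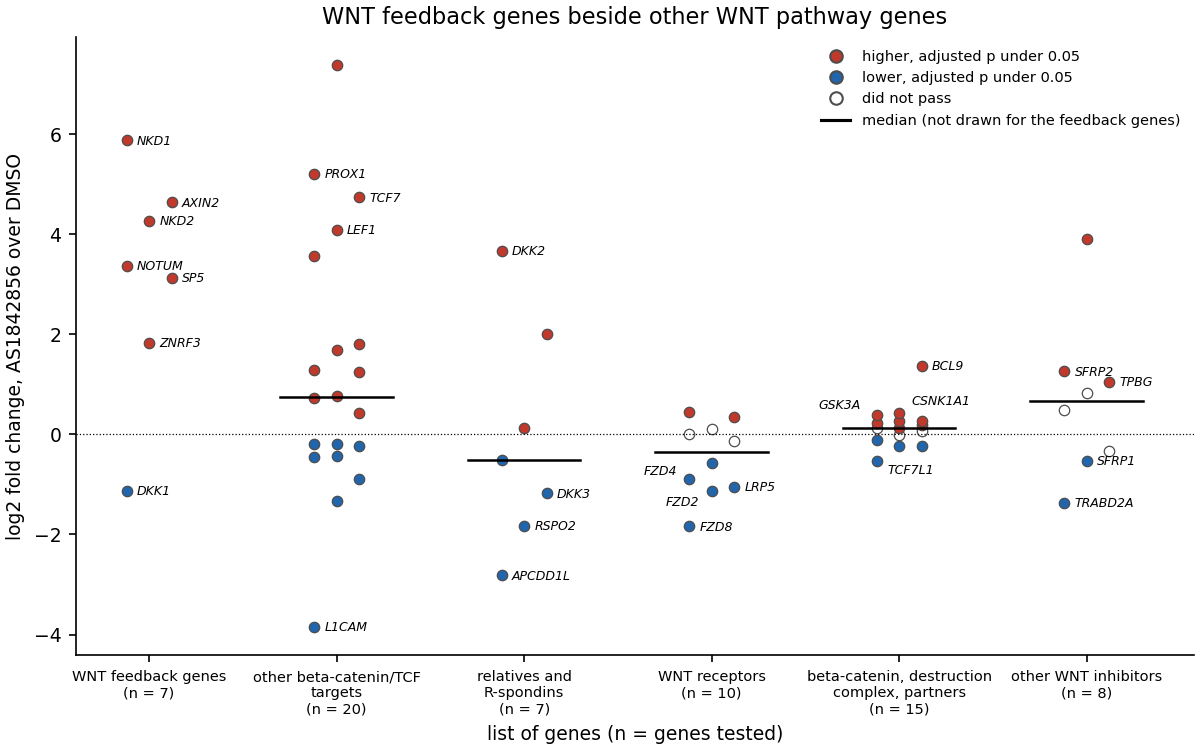
Log2 fold change of each gene tested, AS1842856 over DMSO, in the feedback list and 5 other lists of WNT pathway genes, colored by the edgeR call, with a line at the median of each of the 5 other lists. The target genes spread in both directions, while genes of the destruction complex and its partners lay between -0.54 and 1.36. Medians of the targets, the relatives and the other inhibitors include genes that the filter let in only as increases.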

How the data were processed

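RNA-Seq was performed on 3 DMSO and 3 AS1842856 samples of BT549 cells, which the methods text calls biological replicates. The p-values set the difference between groups against the spread between these samples, which edgeR estimates with information from all genes. Samples were assigned to groups by their labels. The authors deposited raw gene counts for each library without normalization, and FPKM values, which divide the counts by gene length and depth. The methods text names STAR for mapping, while the submitters' processing notes list Bowtie 0.12.2, CASAVA and GRCh38. The counting tool and the use of strand are not given in the sources used here, so reads of overlapping genes may be shared or lost. All 58735 genes were found in GENCODE release 29, which gave positions and exon lengths.

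Counts were filtered with filterByExpr (minimum count 10, minimum total count 15), which left 14338 genes with 99.9% of counts. Libraries were scaled by TMM (factors 0.995 to 1.01) and compared with edgeR 4.0.16 in R 4.3.3 (glmQLFit with robust estimation, no block, Benjamini-Hochberg threshold 0.05), with a common biological coefficient of variation of 0.0374. CPM are TMM-normalized. An exact permutation test of 3 against 3 samples cannot go below p = 0.1 and was not used. Intervals and floors cover counting error only. The test was checked on simulated counts for this comparison, where it recovered 91.3% of 195 changed genes among 14114 genes (78.0% at 1.5-fold and 97.9% at 4-fold). Far fewer genes changed in the simulation than the 56.0% called here, so scaling under a broad change was not checked. Replicates of a group differed by more than sampling noise, with chi-square per degree of freedom of 2.38 to 3.28.

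The 10 genes and the other lists were chosen with earlier results of these data known, and the other lists were written from general knowledge. Named were the 10 genes, of each other list the 4 largest changes with an adjusted p under 0.05 and a mean of at least 1 CPM, and for AXIN2 and DKK1 the 3 nearest profiles. Alternatives were DESeq2 1.42.0, its size factors in edgeR, library totals, the replicate block, a minimum mean of 50 counts or no filter, each library left out, and limma 3.58.1 on log2(FPKM + 1) with and without a minimum mean FPKM of 0.5 and on log2(FPKM + 0.1). The result of 1 marker gene is not reported here.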

Additional observations from a re-analysis of the deposited data

How the results depend on the processing

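AXIN2, NKD1, NKD2, ZNRF3, NOTUM, SP5 and DKK1 kept their direction and passed the threshold under every alternative that tested them, which gave 98 values. All came from the same 6 libraries. Where an alternative filtered on level, NKD1, NKD2, NOTUM and SP5 could enter only by being higher, so their direction there was fixed. With a mean of at least 50 counts required, 3 feedback genes were higher instead of 6, because NKD2, NOTUM and SP5 were then not tested. With a minimum mean of 0.5 FPKM, NKD1 and SP5 were not tested and 4 were higher. With each library left out, 6 were higher and 1 was lower each time, genes called ranged from 7427 to 7678, and called genes of the other WNT lists from 47 to 52 against 51 with all libraries. The other alternatives called between 6523 and 8030 genes, with DESeq2 at 6791, and between 40 and 51 genes of the other lists. On the log2(FPKM + 1) scale the changes of low genes are understated, at 0.88 for NKD1 and 3.40 for AXIN2.

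With the replicate block, 7862 genes were called, 6 feedback genes were higher and 1 was lower, with log2 fold changes of 4.64 for AXIN2 and 4.32 for NKD2. Deviations of libraries with the same letter correlated at 0.048 (A), -0.015 (B) and 0.004 (C) over genes, so the letters were not taken to pair the samples. Depth limits the DMSO levels of NKD1, NKD2, NOTUM and SP5, each at or under 10 counts per library, and left APCDD1 and LGR5 untested. RNF43 was listed at 0 counts in every library, for a reason that was not tested.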
